A study of Mus musculus with 14 samples.

Results

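The regions described here were DNase hypersensitive sites of mouse liver that carried a called peak in both libraries of untreated hypophysectomized (hypox) males and in no library of hypox males given growth hormone (GH). They were chosen by the presence or absence of a called peak alone. Peaks of the 14 per-library lists were joined wherever they overlapped by 1 bp or more, which gave 48148 regions on chromosomes 1 to 19 and X. Of these, 20353 were called in both untreated hypox male libraries. In all, 638 regions were then called in none of the 6 libraries taken 30, 90 or 240 min after GH. They made up 1.33% of all regions and 3.13% of those called in both untreated hypox male libraries. These shares state the choice and are not a finding. The 638 regions are called lost regions below, a word for the missing call and not for a measured loss of signal.

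GH from the pituitary binds its receptor on hepatocytes, activates the kinase JAK2 and sends the transcription factor STAT5 to the nucleus. DNase I cuts where nucleosomes are displaced, so that a peak of cuts marks a promoter, an enhancer or another regulatory element in open chromatin. Removal of the pituitary takes away GH together with the hormones that drive the thyroid, adrenal and gonads, and mouse liver then loses much of its sex difference in gene expression.

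The animals were CD-1 (ICR) mice of 7 weeks, with hypophysectomy done by the supplier and checked by absent weight gain and absent major urinary protein. Hypox males received 1 intraperitoneal injection of recombinant rat GH at 125 ng per g and livers were taken 30, 90 or 240 min later, with 2 libraries per time. Both remaining male libraries came from untreated hypox males, and whether these received vehicle is not given in the labels. Among females there were 2 libraries from hypox and 4 from intact animals, none given GH. Every library pooled DNase fragments of 3 livers, or of 2 in hypox female pool 1, so a pool is the replicate. Intact males were not analysed here.

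Sequencing depth was 17419756 tags in untreated hypox male pool 1 and 33700120 in pool 2, against 13813596 to 17174839 in the GH libraries. The lists held 23836 and 26276 peaks in the untreated males and 18808 to 28010 after GH. Both untreated male libraries carried the code G103 in their titles and all GH libraries the code G92. Absence of GH and code therefore cannot be told apart among males. Hypox females carried G92 and had no GH. Intact female pools 1 and 2 carried G92 and pools 3 and 4 G93. Intact female pool 3 stood apart: it called 65.6% of the 12571 regions present in all 8 male libraries, against 93.05 to 99.1% in the other female libraries. Counts of regions by female calls are given with and without it. Of 15 plasma protein genes that mark hepatocytes, 14 had a linked region called in both untreated hypox male libraries, as had 7 of 8 endothelial, 2 of 8 stellate, 1 of 8 lymphocyte, 1 of 6 cholangiocyte and 0 of 8 Kupffer cell markers. Of the 8 Kupffer cell markers, 7 were in the annotation. In such bulk tissue, fewer cells of a type and less signal per cell cannot be told apart.

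Windows of 200 bp around the summit are shown for 8 lost regions, chosen for the height of their peaks or for what the female libraries showed. Sequences are mm9, plus strand, with capitals for matches on either strand to the short motifs listed further on, other than the gap variants of STAT5. Ppargc1a and Rgs6 have an intronic region called in every library without GH, and Cyp3a25, a cytochrome P450 gene, has a pair of the highest peaks. Capitals mark a C/EBP match in each of the windows, an AP-1 match (TGACTCA) in Rgs6, AGGTCA hexamers and an NF-Y match in the Cyp3a25 promoter, and an E-box in the distal Cyp3a25 region.
Ppargc1a intron (chr5:51936930-51937129, mm9, + strand): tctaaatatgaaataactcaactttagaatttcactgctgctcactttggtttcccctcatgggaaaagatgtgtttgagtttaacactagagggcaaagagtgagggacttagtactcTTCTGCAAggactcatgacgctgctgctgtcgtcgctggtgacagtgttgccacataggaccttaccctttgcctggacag
Rgs6 intron (chr12:83956482-83956681, mm9, + strand): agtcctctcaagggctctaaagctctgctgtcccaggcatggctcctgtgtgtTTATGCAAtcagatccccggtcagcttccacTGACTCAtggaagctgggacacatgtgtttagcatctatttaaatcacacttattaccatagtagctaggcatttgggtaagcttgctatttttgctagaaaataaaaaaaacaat
Cyp3a25 promoter (chr5:146821243-146821442, mm9, + strand): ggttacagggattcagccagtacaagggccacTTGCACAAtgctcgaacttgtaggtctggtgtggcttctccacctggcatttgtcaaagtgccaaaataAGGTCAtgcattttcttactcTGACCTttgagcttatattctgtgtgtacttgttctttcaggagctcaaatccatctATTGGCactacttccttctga
Cyp3a25 distal region (chr5:146787031-146787230, mm9, + strand): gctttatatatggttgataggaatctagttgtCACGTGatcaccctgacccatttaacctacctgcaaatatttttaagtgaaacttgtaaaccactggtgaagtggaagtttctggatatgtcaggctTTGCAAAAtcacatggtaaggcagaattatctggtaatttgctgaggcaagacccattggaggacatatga

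The next pair shows the top 2 regions by fold. The window 1.9 kb upstream of Hrh2 holds an AP-1 match. The window in Ttc23 holds no match and is a tandem repeat, in which a short unit recurs.
Hrh2 upstream region (chr13:54285501-54285700, mm9, + strand): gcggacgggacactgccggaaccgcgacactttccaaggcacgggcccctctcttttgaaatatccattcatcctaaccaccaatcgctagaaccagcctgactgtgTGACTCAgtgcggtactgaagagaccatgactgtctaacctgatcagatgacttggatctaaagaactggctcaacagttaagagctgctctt
Ttc23 intron (chr7:74807524-74807723, mm9, + strand): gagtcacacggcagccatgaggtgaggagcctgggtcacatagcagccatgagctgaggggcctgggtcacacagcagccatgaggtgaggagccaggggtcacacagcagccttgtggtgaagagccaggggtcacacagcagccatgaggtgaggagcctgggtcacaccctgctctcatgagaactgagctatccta

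The last pair had no peak in any female library. An intergenic window on chromosome 12 holds the STAT5 consensus (TTCTAAGAA) and a FOXA match, and the promoter window of Zmym2 has 79.5% GC and 5 SP1 matches.
Chromosome 12 intergenic region (chr12:10700580-10700779, mm9, + strand): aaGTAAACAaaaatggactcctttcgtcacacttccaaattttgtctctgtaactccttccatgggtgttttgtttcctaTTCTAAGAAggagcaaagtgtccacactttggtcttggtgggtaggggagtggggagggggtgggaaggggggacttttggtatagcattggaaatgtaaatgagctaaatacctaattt
Zmym2 promoter (chr14:57505024-57505223, mm9, + strand): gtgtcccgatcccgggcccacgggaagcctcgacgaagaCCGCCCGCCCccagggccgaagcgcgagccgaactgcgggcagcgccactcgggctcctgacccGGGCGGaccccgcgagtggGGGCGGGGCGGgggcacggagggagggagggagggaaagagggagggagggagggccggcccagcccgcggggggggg

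The lost regions had low peaks. The authors' fold, the enrichment of a peak over its local background in its own library, had a median of 4.36 in pool 1 (range 2.41 to 9.84) and of 3.91 in pool 2 (2.08 to 14.5). The shallower pool 1 had the higher fold at 457 of 638 lost regions. Of all peaks in the list, 15.4% in pool 1 and 27.5% in pool 2 had a fold at or below 4.20, the median of the lost regions averaged over both pools. In the GH lists, 7.79 to 11.1% of the peaks were that low.

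A gradient ran through all regions called in both untreated hypox male libraries, according to how many GH libraries also called them. Regions with a peak in 0, 1, 2, 3, 4, 5 and 6 GH libraries numbered 638, 979, 1064, 1294, 1590, 2217 and 12571. Their median fold in untreated hypox males was 4.20, 4.42, 4.62, 4.87, 5.07, 5.48 and 7.95. Lost regions were thus the lowest, next to the regions just outside the rule, called in 1 GH library. The steps were small from 0 to 5 libraries and the last, to 6, was the largest. Median −log10 q over the same steps was 6.15, 6.95, 7.55, 8.57, 9.60, 11.7 and 29.4, and median width 463, 515, 562, 592, 630, 673 and 804 bp. These values belong to the lists that chose the regions and are descriptive.

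**Figure D1:**
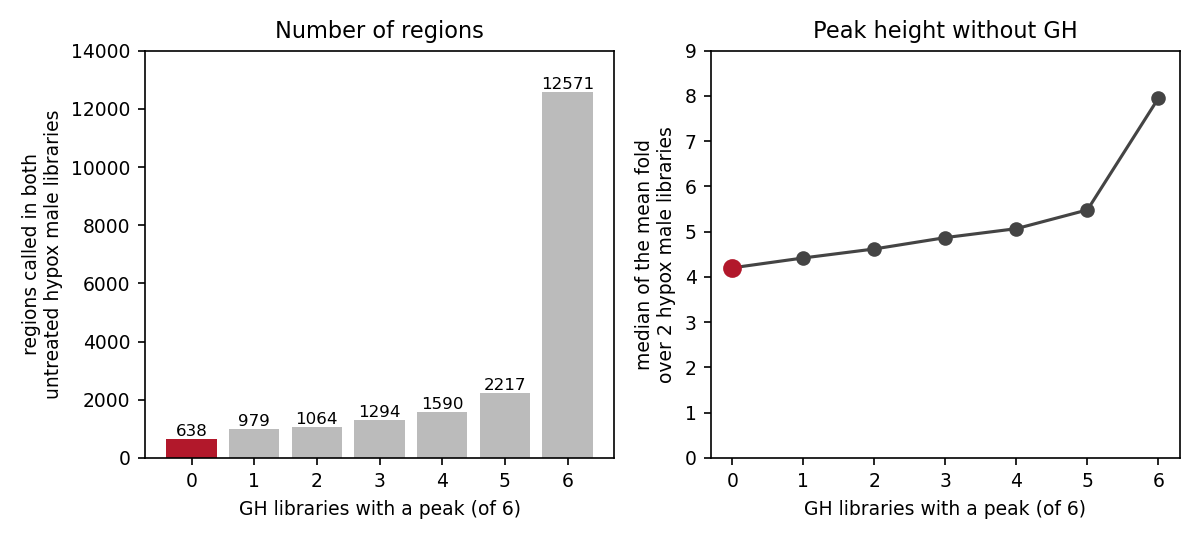
Regions called in both untreated hypox male libraries, by the number of GH libraries (of 6) with a peak. The left bars give the number of regions (638 lost regions in red) and the right points the median, over regions, of the mean fold in both untreated hypox male libraries, which climbs from 4.20 to 7.95.

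Of the 979 regions with 1 GH call, 621 (63.4%) had it in pool 1 of 240 min, the GH library with the longest list. The other 5 GH libraries held 34 to 144 of these single calls. Without that pool, 1258 regions would have met the rule. At the weak end, the lost regions with the lowest mean −log10 q lay in an exon of Morc3 (2.66), 110.9 kb from Foxn3 (2.82) and 31.5 kb upstream of Arg1, the urea cycle arginase of hepatocytes (2.82). The Arg1 region (chr10:24678471-24679188) was called in both hypox female libraries, at folds of 4.37 and 4.19, and in intact pools 1, 2 and 4.

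The authors also deposited a combined list per group, made from the tags of all its pools. At 30 min 120 lost regions (18.8%) had a peak in the combined GH list, at 90 min 121 (19.0%) and at 240 min 177 (27.7%). Of the regions with 1 GH call, 41.4, 45.1 and 76.4% had a peak in those lists. In total 308 lost regions (48.3%) had a peak in at least 1 combined GH list, against 72.7% of all regions, and 14 had one in all 3. The median fold of the lost regions with a peak at 30, 90 and 240 min was 3.69, 3.73 and 3.79. It was 4.33 for all 638 lost regions in the combined untreated hypox male list, so the medians cover different regions. The combined lists hold the tags of the libraries the rule chose on. Lower shares and folds after GH are thus partly set by the choice and are descriptive only. Combined depth was 28472456 to 32122131 tags after GH and 51119876 in untreated hypox males. For 330 lost regions no list after GH, single or combined, held a peak.

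The female libraries took no part in the choice. Hypox female pools 1 and 2 called 15.05% (96) and 38.1% (243) of the lost regions. Intact female pools 1 to 4 called 48.9% (312), 29.8% (190), 29.6% (189) and 63.5% (405). The pools of both groups overlapped, since hypox female pool 2 was above intact pools 2 and 3. The mean was 26.6 ± 16.3% (SD, n = 2) in hypox and 42.9 ± 16.4% (SD, n = 4) in intact females, a difference of -16.4 points (exact permutation test over 15 divisions, two-sided p = 0.4, where the smallest possible p was 0.133). Without intact pool 3 the difference was -20.8 points (exact permutation p = 0.4). With every list shortened to the same number of peaks it was -0.77 points (exact permutation p = 0.8).

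Regions with 1 GH call were called more often in every female library, at 24.5 and 54.3% in the hypox pools and 63.8, 46.6, 43.3 and 74.5% in the intact pools. The share of lost regions was 0.614 to 0.852 of that share across the 6 libraries. Over all regions, the hypox pools called 35.1 and 51.1% and the intact pools 57.1, 47.2, 43.6 and 72.1%. Lost regions lay below all regions in each library. Folds in untreated males also differed between the classes compared, and their part in this was not tested.

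**Figure D2:**
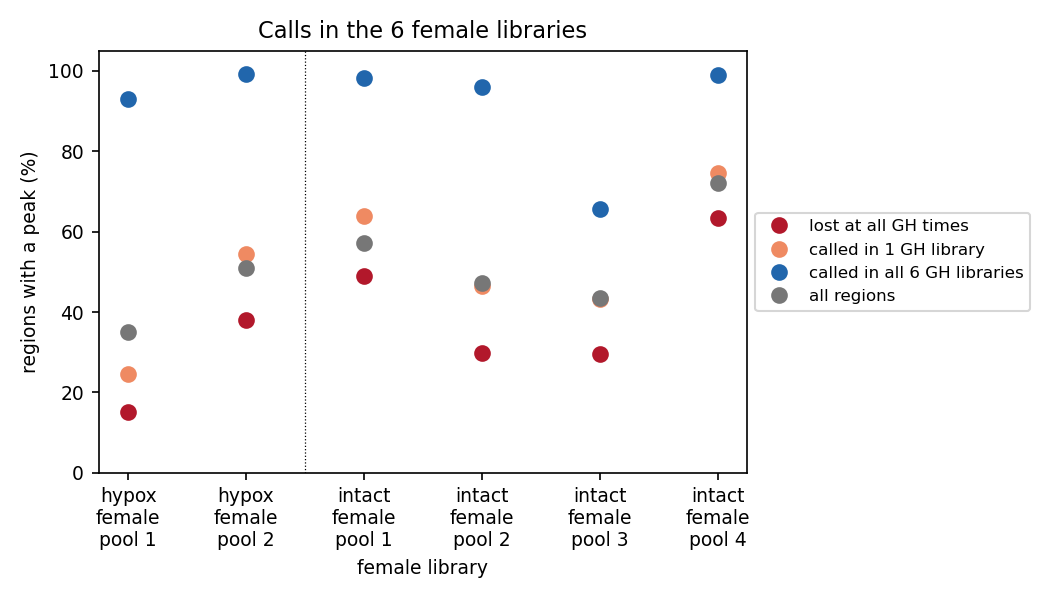
Percent of regions with a peak in each of the 6 female libraries, for 4 classes of region (1 point per class and library, no error bar because each point is 1 library). The lost regions are the lowest point in every library, from 15.05% in hypox female pool 1 to 63.5% in intact female pool 4.

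Both hypox female libraries called 55 of the 638 lost regions (8.62%, exact 95% interval 6.56 to 11.1%), against 32.8% of all regions. Neither called 354 (55.5%, against 46.6%). Intervals here cover counting error only. The same rule applied with hypox females in place of the untreated males, and the same 6 GH libraries, found 164 regions. The 55 regions were in both sets and made up 33.5% of the female set and 8.62% of the male set. Of the other female-set regions, 50 were called in 1 untreated male library and 59 in none. The sets share the GH libraries.

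All 4 intact female libraries called 96 lost regions (15.05%, against 28.6% of all regions), and 158 (24.8%, against 41.8%) were called by all intact libraries when pool 3 was left out. The median fold of the 96 was 5.52 in intact females and 4.50 in untreated hypox males, with the intact mean higher at 82 of 96. Without pool 3 the medians were 5.39 and 4.41, and the intact mean was higher at 138 of 158. Both sets of folds come from separate lists and are not scaled to each other. These regions were picked for a peak in every intact library used, and lost regions had low male folds. The higher intact means are thus partly set by the choice and are descriptive only. Of the 96, 37 had no peak in either hypox female library (5.80% of lost, against 4.11% of all regions), and without pool 3 the count was 63 (9.87%, against 5.55%). No female library called 107 lost regions (16.8%, against 12.4%), and without pool 3 none called 115 (18%, against 15.8%). Both hypox female and no intact libraries called 9 (1.41%, against 0.594%), with or without pool 3. Among regions with 1 GH call, 9.09% were in all 4 intact and no hypox female libraries (13.1% without pool 3). No female library called 8.07% of them (8.27% without pool 3), and both hypox female and no intact libraries called 2.25%.

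Position differed between these sets of lost regions, a description with no test. Of the 107 regions with no female peak, 38.3% were promoters and the median GC content was 55.0%. The promoter share was 18.4% over all regions without a female peak, and 35.4% over those with 1 GH call and no female peak. Of the 96 called in all intact libraries, 9.38% were promoters and the median GC content was 48.5%. Over all regions called in all intact libraries the promoter share was 24.2%, and over those of them with 1 GH call 9.49%. Regions with 1 GH call thus had shares close to those of lost regions. Without pool 3 the promoter share of lost regions was 36.5% with no female peak and 10.8% with a peak in all intact libraries. Among the 9 in both hypox female and no intact libraries, 7 were promoters, beside 32.2% of all regions so called. With 1 GH call, 10 of the 22 regions so called were promoters (45.5%). These, named after their values were seen, included those of Reln, Ncam2, which encodes a neural cell adhesion molecule, Abcb6, a porphyrin transporter, and Il17ra, a receptor for interleukin 17.

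A peak in all 8 libraries without GH was present at 12 lost regions (1.88%, where 18.9% of all regions were called in all 6 female libraries), and without pool 3 at 17 (2.66%, against 28.7%). Of the 12, 6 also had no peak in any combined GH list. The region in an intron of Ppargc1a (chr5:51936624-51937319), which encodes the coactivator that raises gluconeogenic and mitochondrial genes in fasting liver, had folds of 8.02 and 6.93 in untreated hypox males. It had 4.43 and 7.10 in hypox females and 6.12, 5.36, 4.54 and 5.56 in intact females, so that both male pools were above all 4 intact pools and the hypox female pools spanned the intact values. No combined GH list held it. Here and below, folds of different libraries come from separate lists not scaled to each other, so comparisons between pools are descriptive only.

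The region in an intron of Rgs6 (chr12:83956209-83957086), a regulator of G protein signalling, had folds of 7.89 and 5.43 in untreated hypox males and 6.25 and 5.75 in hypox females. Its intact values were 17.4, 10.96, 11.06 and 12.5. All 4 intact pools were above all 4 hypox pools without GH. It too was absent from the combined GH lists.

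The other regions of this kind without a combined GH peak lay in introns of Rpgrip1 and Zcchc24, 10.1 kb upstream of Fabp1 and 122.5 kb upstream of Dio3. Fabp1 encodes the liver fatty acid binding protein, and Dio3 the deiodinase that inactivates thyroid hormone. The Fabp1 region (chr6:71139588-71139980) was even across groups, with folds of 3.75 and 3.55 in untreated hypox males, 3.83 and 3.45 in hypox females and 3.01 to 3.72 in intact females. The Dio3 region (chr12:111394519-111395016) had 3.02 and 3.39, then 3.16 and 3.87, and 3.39 to 6.14 in the same order.

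In 6 of the 12 a combined GH list did hold a peak. The region 23.9 kb upstream of Lmod3, a leiomodin of muscle, had 6.30 and 5.08 in untreated hypox males, 5.57 to 11.1 in intact females and 3.53 in the combined 240 min list. Stab2, a scavenger receptor of liver sinusoidal endothelium, had an intronic region (chr10:86342966-86343536) with 6.25 and 4.67, and 4.23 at 240 min. A region at the promoter of the cell polarity gene Llgl2 had 6.30 and 4.37, and 3.46 at 240 min. Introns of Aen, an apoptosis-enhancing nuclease, and Papln each appeared in 2 combined GH lists, as did the promoter of Cln8, a protein of the endoplasmic reticulum. The Cln8 region lay 554 bp from a region called in all 8 male libraries.

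**Figure D3:**
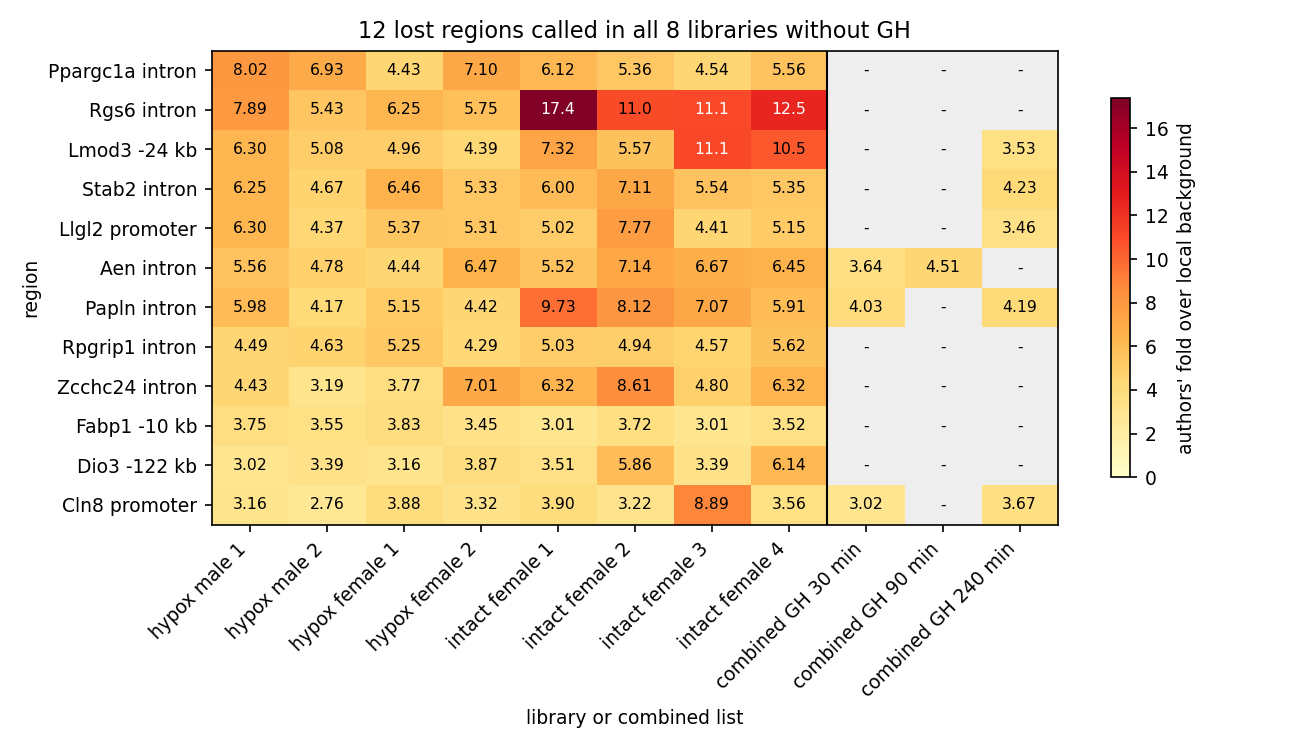
Authors' fold at the 12 lost regions called in all 8 libraries without GH. Columns are libraries and, right of the line, the combined GH lists; grey cells with a dash have no peak. Ppargc1a and Rgs6 have the highest folds in untreated hypox males and no combined GH peak.

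By fold in untreated hypox males the first region (chr13:54285415-54285653) lay 1.9 kb upstream of Hrh2, a receptor for histamine, at 8.73 in pool 1 and 14.5 in pool 2. Among females hypox pool 2 had 5.75 and the other 5 libraries had no peak, and the combined 240 min list had 3.96. Next was an intron of Ttc23 (chr7:74807193-74807782), with 8.88 and 8.92, 7.56 in hypox female pool 2, 5.06, 7.32 and 5.79 in intact pools 1, 2 and 4, and 4.93 in the combined 240 min list. Of the 20 highest lost regions, 4 were promoters, those of Cyp3a25, Cyp2d40, Zfp959 and Zmym2.

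Several of the 20 had higher mean folds in intact females than in untreated hypox males. A region 88.0 kb upstream of Asap1, a regulator of the actin cytoskeleton (chr15:64302138-64302797), had 8.01 and 5.76 in untreated hypox males, 5.32 in hypox female pool 2 and 9.81, 5.31, 8.12 and 12.4 in the intact pools. An intronic region of Sh3pxd2a, a scaffold of podosomes (chr19:47354287-47355006), had 6.09 and 6.86, 3.43 in hypox female pool 1 and 13.9, 10.3, 5.97 and 10.5 in the intact pools, with 4.43 in the combined 30 min list. The region 21.6 kb upstream of 4932441B19Rik (chr13:65112423-65112945) had 7.34 and 5.86, no hypox female peak and 8.57 to 10.05 in the intact pools, with 3.38 in the combined 90 min list. At Asap1 and Sh3pxd2a the untreated male and intact pools overlapped, with the only hypox female value below both male pools, and at 4932441B19Rik all 4 intact pools were above both male pools.

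The intronic region of Cd4, the coreceptor of helper T cells (chr6:124831810-124832453), had 7.41 and 5.16 in untreated hypox males, 3.96 in hypox female pool 2 and 5.48 to 8.03 in the intact pools. Peaks at 3.36 and 3.70 stood in the combined 90 and 240 min lists. Of 8 lymphocyte markers 1 had a region in both untreated hypox male libraries, and the part of lymphocytes in the Cd4 region was not tested. The rest of the 20 lay in introns of Tram2 and Gm15286, upstream of Med18 (6.0 kb), 5830418K08Rik (36.3 kb) and Lrp12 (180.8 kb), and 70.4 kb from the start of Arl5b, with mean folds of 6.05 to 6.83.

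Cytochrome P450 genes were singled out after their values were seen. The family had 4 genes with a linked lost region, Cyp3a25, Cyp3a11, Cyp2d40 and Cyp2a12, of 50 with a region called in both untreated hypox male libraries (8.0%), beside 4.45% over all 13317 such genes. All 4 encode microsomal enzymes of drug and steroid oxidation and belong to families of close copies, where uniquely mapped reads can miss or move signal. In each the lost region was the promoter, and none had a peak in a combined GH list. The lost regions of Cyp2d40 and Cyp3a11 lay 126 and 853 bp from a region called in all 8 male libraries. For Cyp3a25 and Cyp2a12 that distance was 97174 and 95122 bp.

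At the Cyp3a25 promoter (chr5:146821165-146821418) the folds were 9.84 and 6.30 in untreated hypox males. Hypox female pool 1 had 6.87 and pool 2 no peak, and intact pools 1, 3 and 4 had 7.39, 8.46 and 11.3. A region nearest to the same start, 16.1 kb away (chr5:146786765-146787374), had 8.33 and 7.63 in untreated hypox males, 6.46 in hypox female pool 1 and 5.02, 3.93, 5.04 and 7.67 in the intact pools. At the Cyp2a12 promoter (chr7:27813795-27814228) the values were 4.89 and 5.86, 4.85 and 7.19 in hypox females, and 8.61, 8.54 and 10.5 in intact pools 1, 3 and 4. Cyp2a12 was called in every library without GH but intact pool 2.

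The Cyp3a11 promoter (chr5:146691189-146691755) had 4.12 and 4.68 in untreated hypox males, 5.42 in hypox female pool 1 and 4.12, 4.96 and 6.78 in intact pools 1, 3 and 4. The Cyp2d40 promoter (chr15:82594550-82594872) had 5.91 and 7.41, with 6.20 in hypox female pool 2 and 5.197, 4.10 and 4.80 in intact pools 1, 2 and 4. Nr1i2 encodes the pregnane X receptor, the xenobiotic sensor that induces Cyp3a11 in mouse liver, and had an intronic lost region (chr16:38286621-38286990) at 2.84 and 2.103. All 4 intact pools called the Nr1i2 region, at 2.64, 2.99, 3.32 and 3.78, and no hypox female pool did. Nr1i2 was named after its values were seen.

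The ABC gene family, also singled out afterwards, had 5 genes with a lost region of 36 (13.9%, beside 4.45%). Abca1, the cholesterol efflux pump, had 2 intronic regions, with 4.67 and 4.71 at one and 3.49 and 3.03 at the other in untreated hypox males. Hypox female pool 2 and intact pool 1 called both, and intact pool 4 called the first. Abcb1a, a P-glycoprotein that exports drugs, had an intronic region (chr5:8716131-8716439) with 5.94 and 5.00 and no peak in a female library. The combined 90 and 240 min lists held it at 3.16 and 3.71, and the combined intact female list at 3.98. The others were Abca8b, Abcb6 and Abcf2. Abcf2 was linked only through a region at the promoter of Chpf2, upstream of its own start.

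The 17 gene lists used to look for themes gave few lost regions. A region counted for a gene when its summit fell inside the gene or up to 10 kb before its start. None of the 9 direct GH/STAT5 targets with a region in both untreated hypox male libraries had a lost one. The count was also 0 for male-biased genes (of 10), female-biased genes (of 12), plasma protein genes (of 14), lipid synthesis and thyroid-responsive genes (of 16), glucocorticoid-responsive genes (of 12), circadian genes (of 13), immediate-early genes (of 14) and ubiquitous genes (of 10). The share over all genes was 4.45%.

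Fatty acid oxidation genes had 2 of 14 (14.3%, beside 4.45% over all genes). Ppara, the fatty acid receptor that switches on this pathway, had an intronic region (chr15:85604835-85605210) at 2.49 and 2.36, with 2.85 and 3.46 in intact pools 1 and 4 and 2.44 in the combined 30 min list. Acot1, an acyl-CoA thioesterase, had an intronic region (chr12:85352266-85352873) at 4.36 and 3.91, with 6.28, 5.41 and 6.97 in intact pools 1, 3 and 4 and a peak in all 3 combined GH lists (4.10, 4.51 and 5.19). Acot1 lies in a cluster of close copies. Gluconeogenesis and glycogen genes had 1 of 13, Ppargc1a, whose other lost region (chr5:51928577-51929150) had 5.56 and 3.62, with 4.05 in hypox female pool 2 and 4.55 and 3.48 in intact pools 3 and 4.

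Hepatocyte transcription factors had 1 of 14 (7.14%, beside 4.45% over all genes). This was Onecut2, a homologue of HNF6, with a region 6.6 kb upstream on chromosome 18 at 4.03 and 3.26. No female library called it, and the combined 30 and 240 min lists did, at 3.69 and 2.96. A STAT5 gene also appeared, named after its values were seen. A region 0.6 kb upstream of a start of Stat5b (chr11:100712548-100712792), which encodes the main STAT5 of liver, had 4.18 and 3.40 and no peak in any female library or combined GH list.

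Among markers of other cells, endothelial genes had 1 of 7, Stab2, and stellate genes 1 of 2, Reln. Each count rests on 1 gene, and the share over all genes was 4.45%. The Reln promoter (chr5:21850228-21850954) had 3.93 and 3.95 in untreated hypox males, 3.62 and 5.03 in hypox females and no peak in intact females. It had 3.46 and 3.58 in the combined 30 and 90 min lists. Lymphocyte and cholangiocyte markers had 0 of 1 each, and no Kupffer marker had a region in both untreated hypox male libraries.

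Lost regions were spread thinly over genes. By gene identifier, most linked genes had 1, and Gm20388, a locus of 4434.9 kb that spans many other genes, had 4 of 108. The other genes with more than 1 had 2 each. In alphabetical order the first were Abca1 (2 of 9 regions called in both untreated hypox male libraries), Arhgap26 (of 22), Bmp2k (of 3) and Cmtm8 (of 7), and Hsd11b1, which regenerates active glucocorticoid in hepatocytes, was another (of 5). Pairs of neighbouring lost summits within 50000 bp numbered 28. Of the lost regions, 94 (14.7%) lay within 1000 bp of a region called in all 8 male libraries, and the median distance to one was 18.2 kb.

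By position the lost regions were close to the average region. The summit lay within 1000 bp of a transcription start in 169 (26.5%, exact 95% interval 23.1 to 30.1%), in another exon in 25 (3.92%), in an intron in 253 (39.7%) and between genes in 191 (29.9%). Promoters made up 26.6% of all regions, 28.3% of those with 1 GH call and 51.4% of those in all 6 GH libraries. For 231 regions absent at 30 and 90 min and back in both pools at 240 min the promoter share was 15.6%, and for 360 regions gained in all 6 GH libraries and in no untreated male library it was 7.22%.

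**Figure D4:**
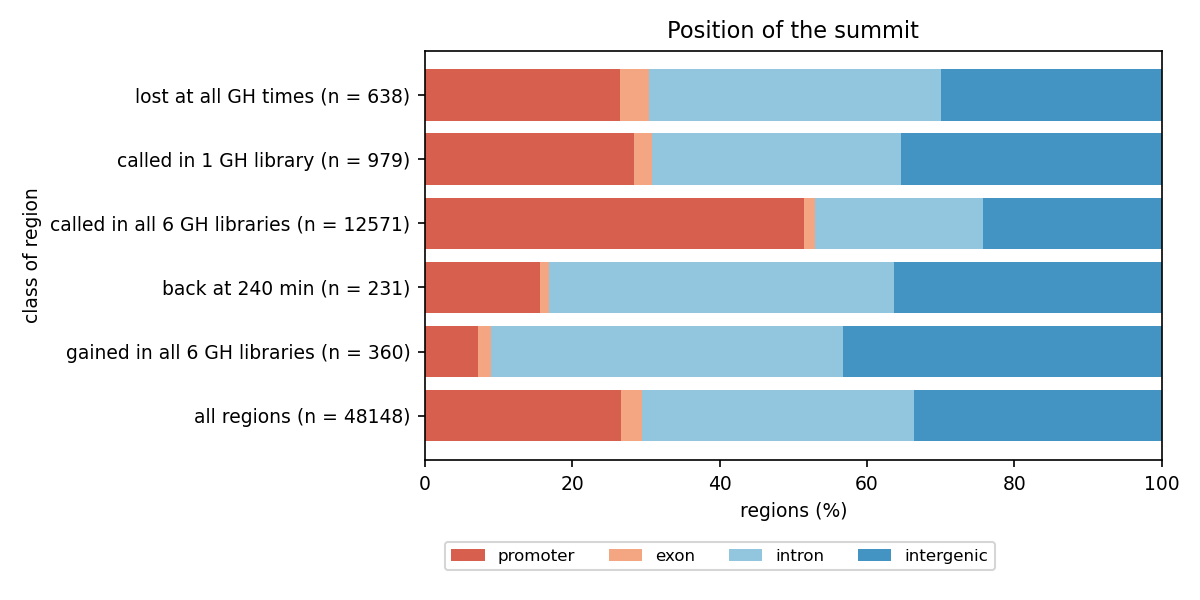
Position of the peak summit in 6 classes of region, as percent of the regions of each class. Promoters (within 1000 bp of a start) make up 26.5% of lost regions, close to 26.6% of all regions and below 51.4% of regions called in all 6 GH libraries.

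Median GC content in the 200 bp windows was 52.2% in lost regions, 51.5% in regions with 1 GH call, 55.0% in those of all 6 GH libraries and 49.0% in all regions. After Cyp3a25 and Cyp2d40, the highest promoters had 59.5% GC at Zfp959, 79.5% at Zmym2, 75.5% at Tmem8 and 66.5% at Ttll1. Zfp959 had folds of 6.64 and 6.08, Zmym2 7.46 and 4.76, Tmem8 7.01 and 4.37, and Ttll1, a tubulin ligase, 5.94 and 5.43. Sgsm3, Chrna2 (a nicotinic receptor subunit) and Fam175a, a DNA repair scaffold, followed. The Ttll1 promoter had a peak in all 3 combined GH lists (4.10, 4.51 and 4.20) and the Zmym2 promoter in none.

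Regions without a peak in any female library are given here by fold. The highest was an intergenic region on chromosome 12 (chr12:10700645-10700846) with 6.29 and 7.38, followed by Zmym2. Next came regions 35.8 kb upstream of Apbb1ip and 134.9 kb from the start of Rab28, with 5.59 and 6.30, and 5.59 and 5.65. The Apbb1ip region had 5.46 in the combined 30 min list. Some had a peak in a combined female list, the chromosome 12 region in that of hypox females (5.17) and the Apbb1ip region in that of intact females (4.10). Others lay in introns of Ccdc11, Abcb1a, Cntnap5b and Rnf13, at the Atad3a promoter and 133.5 kb upstream of 2610203C20Rik. Of these 10 regions, 9 were 200 to 332 bp wide, beside a median of 463 bp for lost regions.

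The STAT5 consensus TTCNNNGAA was scarce in lost regions. It occurred in 21 of 638 windows (3.29%, exact 95% interval 2.05 to 4.99%), in 3.17% of windows with 1 GH call, 6.19% of those of all 6 GH libraries and 8.67% of all windows. Gained regions held it in 56.9%. The variant with a gap of 2 (TTCNNGAA) was in 6.11% of lost (interval 4.38 to 8.26%) and 5.62% of all windows. With a gap of 4 the shares were 3.13% (interval 1.925 to 4.80%) and 5.05%, so this interval too lay below the share of all windows. Both strands were searched, and matches of different motifs were allowed to overlap. A match is a description of letters and not of binding.

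The 21 regions with the STAT5 consensus had mean folds of 2.96 to 6.84. Highest was the chromosome 12 region whose window is printed above, then introns of Ccdc11, Irf2, an interferon regulatory factor, and Sox5. The Cln8 promoter was the only one of them called in all 8 libraries without GH. Of the 21, 15 had no peak in either hypox female library, where 55.5% of lost and 46.6% of all regions had none.

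For HNF6, GATA and AP-1 the exact 95% interval of the lost regions lay below the share of all regions, and for the other liver factors it held that share. These intervals cover counting error only. HNF6 (ATTGATC) was in 5 lost windows (0.784%, interval 0.255 to 1.82%, against 2.68% of all), the GATA factor site AGATAAG in 9 (1.41%, 0.647 to 2.66%, against 3.54%) and AP-1 (TGANTCA) in 33 (5.17%, 3.59 to 7.19%, against 7.498%). In regions with 1 GH call and in those of all 6 GH libraries, HNF6 was in 2.145 and 1.69%. GATA was in 3.98 and 2.62% of these classes and AP-1 in 5.92 and 5.86%. The interval of lost regions held both AP-1 shares. For HNF6 and GATA it held only the share of regions of all 6 GH libraries. HNF4A (CAAAGTCCA) was in 6 lost windows (0.940%, 0.346 to 2.04%, against 1.68% of all). C/EBP (TTGCNNAA) was in 13.6 and 14.98%, FOXA (TGTTTAC) in 6.90 and 5.71%, the AGGTCA hexamer of nuclear receptors in 23.8 and 22.6% and the glucocorticoid receptor site (ACANNNTGT) in 5.80 and 6.28%. HNF1 was in 1 lost window (0.157%, against 0.324%).

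For motifs common in promoters and for the insulator factor CTCF the interval held the share of all regions. SP1 (GGGCGG) was in 16.1% of lost, 16.5% of all and 34.0% of windows of all 6 GH libraries, NF-Y (GCCAAT) in 10.3 and 11.7% and the E-box (CACGTG) in 6.11 and 5.39% of lost and all windows. ETS (CCGGAAGT) was in 1.25 and 1.86%, CRE (TGACGTCA) in 0.470 and 1.01% and CTCF in 2.04 and 2.11%. For ETS and CRE the shares in lost windows were the lower ones, on 8 and 3 windows (intervals 0.543 to 2.46% and 0.097 to 1.37%).

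**Figure D5:**
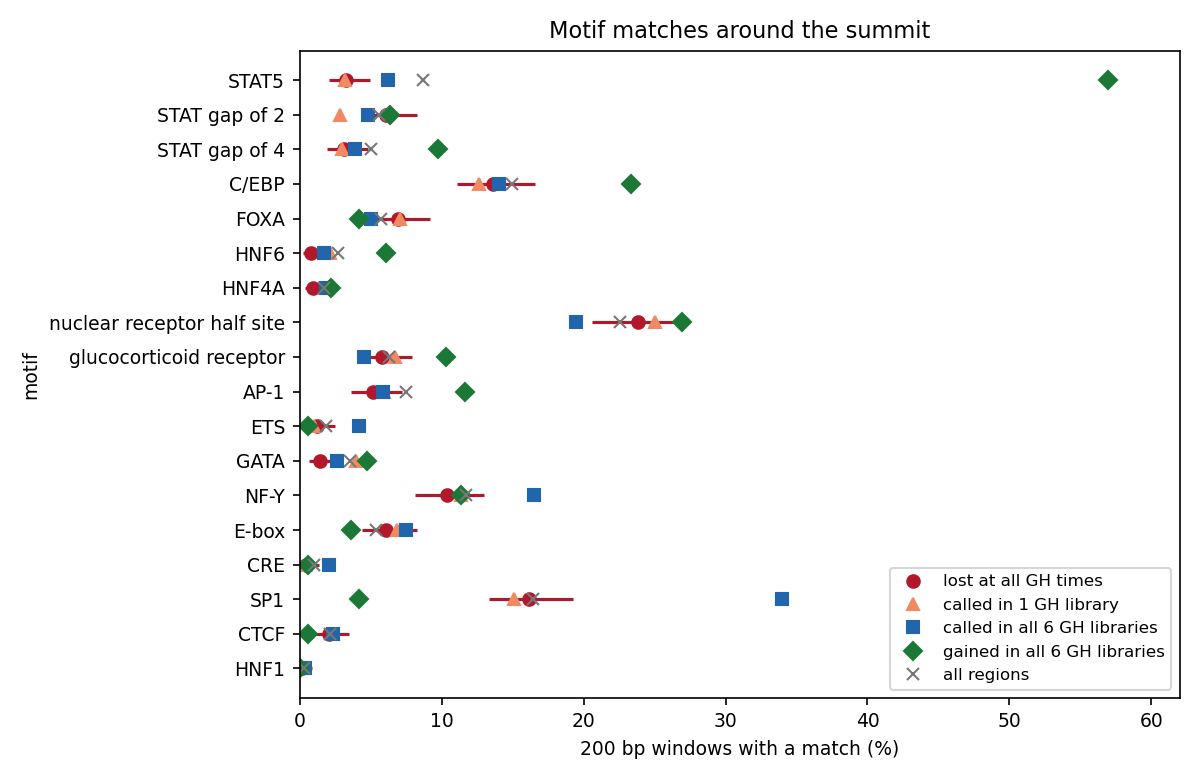
Percent of 200 bp windows around the summit with a match to each of 18 motifs, for 5 classes of region. Lines through the lost regions are exact 95% binomial intervals. For the STAT5 consensus, lost regions (3.29%) lie below all regions (8.67%) and gained regions (56.9%) far above.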

How the data were processed

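Per the submitters' processing notes, Bowtie2 aligned the DNase-seq reads of the 14 liver libraries to mm9. Per the file headers, MACS2 2.1.0.20150731 then called peaks without a control, at a q cutoff of 0.05 with all duplicates kept. The authors deposited a peak list for every library and one combined list for every group. Deposited with each peak are its pileup signal, its fold enrichment (a ratio to the background nearby), its −log10 p and its −log10 q. These belong to 1 list and are absent without a call, so they describe and rank peaks within a list. No counts over common regions were used and no count model was fitted. A missing call means no detection at that depth and threshold.

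Peaks sharing at least 1 bp were merged, with the 638 regions selected on calls in the 8 male libraries. Groups came from the titles, and 0 columns were left unmapped. Positions came from GENCODE vM1 on the same build, by the summit of the stronger untreated hypox male peak. A promoter was 1000 bp on either side of a start. Motifs were searched in 200 bp around the summit, and windows that touched an annotated exon were not printed. The exact permutation test compared hypox with intact female libraries. The labels do not say whether same-numbered pools share a day or litter. Nothing says more of the animals than the pools, so the p-value measures the spread between pools.

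Named regions were the 20 with the highest mean fold, those linked to the 17 gene lists, up to 15 called in all female libraries, up to 10 called in none, the genes with most lost regions, up to 10 promoters, and the 3 with the lowest −log10 q. The regions, gene lists and motifs were chosen with earlier results of these data known. The merging and the choice were tested on simulated peaks. Python 3.11.15, numpy 2.4.6, pandas 2.3.3, scipy 1.17.1 and matplotlib 3.10.9 were used. Alternatives were stricter q and overlap, equal lists, the combined lists, other promoter and window sizes, the replicate block, the code G92 alone and leaving out each library.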

Additional observations from a re-analysis of the deposited data

Results flagged for a closer look

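Among 14 sets of 4 intact female values examined, 1 held a library far from the others. At the promoter of Cln8 (chr8:14887108-14887631) intact pool 3 had a fold of 8.89 and pools 1, 2 and 4 had 3.90, 3.22 and 3.56. The gap between pool 3 and the nearest pool was 0.881 of the whole range. Chance flags about 1 in 20 such groups. Pool 3 is the intact library with the smallest depth, 13078268 tags, and its part in this value was not tested.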

How the results depend on the processing

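The number of lost regions depended on the lists. It was 617 with −log10 q of at least 3 and 648 with an overlap of at least 100 bp. It was 392 with all lists shortened to 17681 peaks, 330 when combined GH lists also had to lack a peak, and 164 with hypox females in place of untreated hypox males, an alternative chosen after seeing the data. Leaving out 1 library gave 676 to 2452 regions, with 2452 without untreated hypox male pool 1, 1720 without pool 2 and 1258 without 240 min pool 1. The rule then asks for fewer libraries, so more regions meet it. The share called in both hypox female libraries was 18.6% with equal lists, and 3.75 to 38.1% when 1 library was left out. The highest of these asks for 1 hypox female call only, and the share without 240 min pool 1 was 13.1%. Lost regions called in all intact libraries numbered 158 without pool 3, and those of them with no hypox female peak 63 in place of 37. All counts without pool 3 were chosen after seeing the data. Promoters were 21.3% at 500 bp and 37.1% at 2500 bp, and the STAT5 consensus was in 5.49% of 400 bp windows, where a longer stretch was searched.

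The difference between hypox and intact females stayed negative under each alternative, from -27.9 to -0.77 points. With the replicate block (pools 1 and 2 paired by number) it was -12.8 points (exact permutation p = 1.0), the same pools as with code G92 alone (p = 0.667). With 2 pairs, whether the numbers pair the samples could not be judged. Both untreated hypox male libraries are deeper than every GH library, pool 1 slightly (17419756 tags against at most 17174839) and pool 2 clearly (33700120). The part of depth in the missing calls was not tested.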

Other observations

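Lost regions were found on all 20 chromosomes examined. Chromosome 4 held 55 of them (8.62%, with 6.43% of all regions), chromosome 11 held 53 (8.31 and 6.79%), chromosome 18 held 32 (5.02 and 3.29%) and chromosome X held 10 (1.57 and 2.03%). These shares were not tested. Outside the rule, pool 1 of the untreated hypox males was the only male library with a peak at 1012 regions, and pool 2 at 1775. Both exceed the 638 shared by the 2 pools.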
